A study of Mus musculus with 2 samples.

Results

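The 10 chemokine ligand genes Ccl2, Ccl3, Ccl4, Ccl5, Ccl6, Ccl7, Ccl8, Ccl9, Cxcl2 and Cxcl16 were followed through the leukocytes of mouse brown adipose tissue (BAT). They were taken by name from the 32285 genes counted, and all 10 had at least 20 UMIs over both libraries. Chemokines are small secreted proteins that bind G protein-coupled receptors on leukocytes and guide their movement into and within tissue. In adipose tissue, macrophages are a known source of the ligands that recruit monocytes through CCR2, while NK cells and activated T cells release ligands that draw further lymphocytes and myeloid cells, and neutrophils both make and answer CXCR2 ligands.

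CD45+ DAPI- cells were sorted from BAT after collagenase digestion, and each condition gave 1 single-cell library made with a 10x 3′ kit. Both came from male C57Bl/6 AdipoQ-CreERT2 ATGLfl/fl mice labelled as 16 weeks of age, a younger age being given in the study's text. The AdipoΔ/Δ mice received tamoxifen at 10 mg/ml in 200 µL injections every 2 days for 1 week, and the controls received vehicle. A rest of 2 weeks followed, and how many mice went into a library is not stated in the sources used here. Tamoxifen induces CreERT2, which the adiponectin promoter drives in adipocytes, so that the lipase ATGL is lost from adipocytes. An effect of tamoxifen itself and one of ATGL loss cannot be told apart in this design. With 1 library per condition there was no replicate spread and no test. All 95% intervals below cover counting error only, and ratios are AdipoΔ/Δ over control.

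The deposited libraries held 2597 control and 2381 AdipoΔ/Δ barcodes with 11327187 and 12028844 UMIs. Of these, 2279 and 2016 cells were kept, with a median of 3678 and 3942 UMIs, and 4 barcodes occurred in both libraries. The ATGL gene Pnpla2 stood at 37.1 and 42.2 CPM over all kept cells, where CPM is the UMIs of a gene per 1000000 summed UMIs. Its ratio was 1.14 (95% interval 0.992 to 1.30), which checks nothing about the labels because the CD45+ gate leaves adipocytes out. Clusters were named from markers, with chemokine ligand and receptor genes kept out of the clustering. The macrophage-like class held 126 control and 397 AdipoΔ/Δ cells, or 5.53% and 19.7% of each library. It had a resident subset (Folr2, Lyve1, Gas6) of 65 and 142 cells, a matrix subset (Lyz1, Retnla, Ecm1) of 49 and 174, and a lipid-associated subset (Gpnmb, Trem2, Fabp5) of 12 and 81. The resident subset was thus the largest part of the control class and the matrix subset the largest of the AdipoΔ/Δ class. Median depth of macrophage-like cells was 3286 UMIs in control and 6332 in AdipoΔ/Δ. A cluster of 55 and 221 cells with a median below 1000 UMIs (997 and 914) stayed unnamed. Marker genes of cells outside the gate summed to 42.3 and 66.4 CPM for adipocytes, 28.0 and 24.0 for endothelial cells, 9.11 and 30.5 for fibroblasts and 1092 and 8.93 for erythroid cells.

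The members fall into a few genomic blocks. In GRCm38 all but Cxcl2 lie on chromosome 11, and each is annotated as protein-coding. Ccl2 (chr11:82035571-82037453, plus strand), Ccl7 (chr11:82045712-82047525, plus) and Ccl8 (chr11:82115185-82116799, plus) form one block. Ccl5 (chr11:83525778-83530518, minus), Ccl9 (chr11:83572919-83578636, minus), Ccl6 (chr11:83587882-83593087, minus), Ccl3 (chr11:83647844-83649355, minus) and Ccl4 (chr11:83662584-83664683, plus) form another. Cxcl16 (chr11:70453983-70459984, minus) lies apart from both, and Cxcl2 is at chr5:90903871-90905938 on the plus strand. Cxcl16 overlaps Zmynd15, Ccl2 overlaps Gm17268 and Ccl6 overlaps E230016K23Rik, each on the other strand. Neighbours within a block differed in where they were counted, as Ccl6 did from Ccl9 and Ccl2 from Ccl8.

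Promoter sequences from RefSeq (GRCm38.p6) were at hand for 5 of the 10 members, namely Ccl3, Ccl6, Ccl8, Ccl9 and Cxcl2. The 250 bases before the RefSeq start are shown for Ccl6 and Ccl9, adjacent genes with unlike levels in neutrophil-like cells, and for Cxcl2, the member with the largest ratio in macrophage-like cells. For Cxcl2 that start lies inside the gene as annotated for the counts, so the window overlaps its first bases. The letters run 5′ to 3′ on the gene's strand, and capitals mark matches to 1 of 5 motifs searched on both strands. The motifs were NF-kB, AP-1 (TGANTCA), C/EBP (TTGCNNAA), an interferon response element made of a GAAA repeat and PU.1 (AGGAAGT).
Ccl6 (chr11:83593088-83593337, minus strand): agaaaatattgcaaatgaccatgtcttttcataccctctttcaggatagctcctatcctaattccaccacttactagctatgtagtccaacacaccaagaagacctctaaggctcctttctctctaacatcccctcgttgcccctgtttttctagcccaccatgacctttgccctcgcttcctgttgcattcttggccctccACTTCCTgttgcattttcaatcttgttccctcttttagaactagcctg
Ccl9 (chr11:83578637-83578886, minus strand): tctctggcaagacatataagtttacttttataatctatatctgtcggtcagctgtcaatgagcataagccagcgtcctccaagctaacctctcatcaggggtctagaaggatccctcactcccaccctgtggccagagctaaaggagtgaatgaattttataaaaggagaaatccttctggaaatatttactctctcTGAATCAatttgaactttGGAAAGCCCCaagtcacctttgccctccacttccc
Cxcl2 (chr5:90903649-90903898, plus strand): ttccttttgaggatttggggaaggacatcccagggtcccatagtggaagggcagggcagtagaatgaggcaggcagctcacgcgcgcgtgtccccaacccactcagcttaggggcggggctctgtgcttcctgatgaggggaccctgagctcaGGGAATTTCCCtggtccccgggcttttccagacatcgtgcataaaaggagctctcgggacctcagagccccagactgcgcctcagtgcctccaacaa
In Ccl6 the capitals are 1 PU.1 match, 48 to 42 bases before the start. In Ccl9 they are an AP-1 match 53 to 47 bases and an NF-kB match 35 to 26 bases before the start. In Cxcl2 they are 2 overlapping NF-kB matches between 97 and 87 bases before the start. No motif matched in the Ccl3 and Ccl8 windows. Of 32851 RefSeq windows of the same length, 7.25% held the NF-kB letters, 6.75% AP-1, 9.56% C/EBP, 2.98% the interferon element and 7.69% PU.1. A match is a description and not a binding site.

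The 10 genes fell into a few patterns across the named classes. Ccl3, Ccl4 and Ccl5 stood highest in NK cell-like cells of both libraries. Ccl2 and Ccl7 stood highest in macrophage-like cells among the named classes, and Ccl8 was counted almost only in their resident subset in control. Cxcl2 stood highest in neutrophil-like cells. Ccl6 was shared by neutrophil-like, macrophage-like and monocyte-like cells, Ccl9 by macrophage-like, Ly6Chigh and dendritic cell-like cells, and Cxcl16 by macrophage-like, Ly6Clow and dendritic cell-like cells. Levels are compared between genes as UMIs, which the 3′ kit counts as 1 tag per transcript whatever its length.

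**Figure D1:**
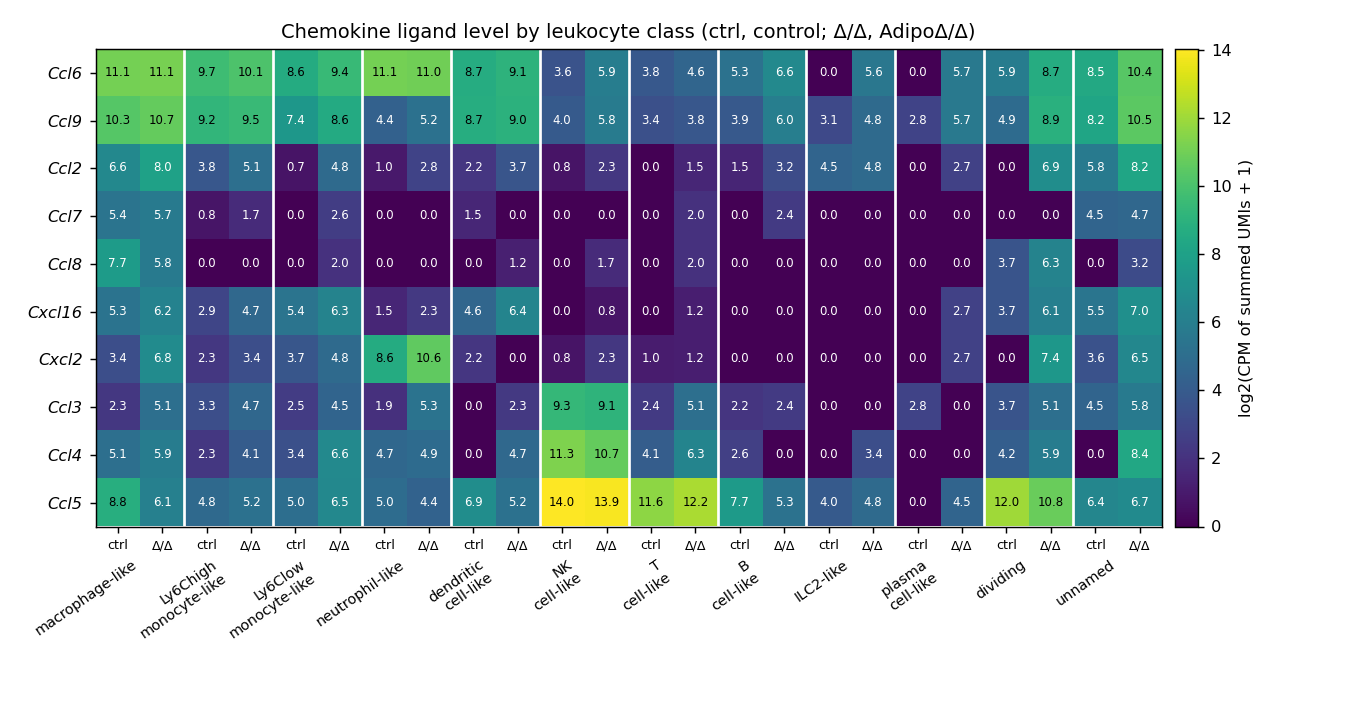
Level of the 10 ligands (rows) in 12 leukocyte classes (columns) of the control and AdipoΔ/Δ libraries, as log2(CPM + 1) of summed UMIs by colour. The Ccl5 level of NK cell-like cells, 16636 CPM in control and 15387 in AdipoΔ/Δ, is the highest value, and Ccl6 is high in neutrophil-like, macrophage-like and monocyte-like columns where Ccl9 lacks the neutrophil-like one.

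Ccl5, which attracts T cells and monocytes, was among the most abundant transcripts of NK cell-like cells. It gave 23887 UMIs in 208 control cells and 20155 UMIs in 173 AdipoΔ/Δ cells, and ranked 4 among all genes of that class in both libraries. All 208 control cells and 172 of 173 AdipoΔ/Δ cells had a Ccl5 UMI. The levels of 16636 CPM (16426 to 16849) and 15387 CPM (15176 to 15601) gave a ratio of 0.925 (0.908 to 0.942). Among T cell-like cells Ccl5 stood at 3138 CPM in control and 4851 in AdipoΔ/Δ, a ratio of 1.55. At the mitochondrial limit of 2% the ratio was 0.838, but the class there was only a cluster led by Dapl1 (96 and 28 cells). A cluster with Cd3g and Cxcr6 among its leading genes (73 and 80 cells) stayed unnamed at that limit. The ratios of 1.55 and 0.838 thus describe different cells. Most of the Ccl5 UMIs behind the ratio of 1.55 lay in the cluster led by Cxcr3. That cluster made up 115 of 390 control and 136 of 281 AdipoΔ/Δ T cell-like cells. Within that cluster the levels were 8104 and 7760 CPM, a ratio of 0.958 (0.923 to 0.993). In the clusters led by Dapl1 and Lef1 Ccl5 was higher in AdipoΔ/Δ, at 911 and 2808 CPM (ratio 3.08) and at 198 and 544 CPM (ratio 2.75), where 1 AdipoΔ/Δ cell held 57.2% and 48.9% of the UMIs.

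Ccl4 and Ccl3, the macrophage inflammatory proteins, were found in many NK cell-like cells, but few cells held 50% or more of the UMIs. Ccl4 was found in 142 of 208 control and 122 of 173 AdipoΔ/Δ cells of this class, and Ccl3 in 104 and 99. Ccl4 stood at 2532 CPM (2450 to 2615) in control NK cell-like cells and 1677 CPM (1607 to 1748) in AdipoΔ/Δ, a ratio of 0.662 (0.628 to 0.699). Ccl3 stood at 647 CPM (606 to 690) in control and 556 CPM (516 to 598) in AdipoΔ/Δ, a ratio of 0.859 (0.779 to 0.948). Both were lower in AdipoΔ/Δ, but single cells weighed heavily. In control, 1 NK cell-like cell was the top cell for both genes, with 286 Ccl3 and 662 Ccl4 UMIs among 8168. Without the top cell of each library the Ccl4 levels were 2082 and 1394 CPM and the Ccl3 levels 450 and 411 CPM. The top 3 control cells held 50% or more of the Ccl3 UMIs, as did the top 8 in AdipoΔ/Δ, whereas for Ccl5 it took 52 and 49 cells. The 2 genes were found together: of NK cell-like cells with Ccl3, 84 of 104 (80.8%) in control and 84 of 99 (84.8%) in AdipoΔ/Δ also had Ccl4. Of cells without Ccl3, 55.8% and 51.4% had Ccl4.

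Outside the NK class, Ccl3 and Ccl4 were low and mostly higher in AdipoΔ/Δ. In T cell-like cells Ccl4 stood at 16.5 CPM in control and 78.4 in AdipoΔ/Δ, a ratio of 4.76, and Ccl3 at 4.25 and 33.7 CPM, a ratio of 7.93. Within the cluster led by Cxcr3 the Ccl4 levels were 42.6 and 135.5 CPM and the Ccl3 levels 11.1 and 60.8 CPM, so the AdipoΔ/Δ value was higher there too. For Ccl3, however, 1 cell of that cluster held 30 of the 55 UMIs of AdipoΔ/Δ T cell-like cells. In Ly6Clow monocyte-like cells Ccl4 stood at 9.77 CPM in control and 96.8 in AdipoΔ/Δ, but 49 of the 99 AdipoΔ/Δ UMIs were in 1 cell. In the unnamed cluster 122 of the 127 Ccl4 UMIs of AdipoΔ/Δ were likewise in 1 cell, and control had 0. T and NK cells thus held nearly all Ccl3, Ccl4 and Ccl5 UMIs in control, with 94.8% of Ccl3, 97.2% of Ccl4 and 76.8% of Ccl5 in NK cell-like cells alone. In AdipoΔ/Δ these NK shares were 72.0%, 77.5% and 68.3%.

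Ccl6 and Ccl9, CCR1 ligands found in rodents, were the most abundant of the 10 members in macrophage-like and Ly6Chigh monocyte-like cells of both libraries. Ccl6 gave 1150 UMIs in control and 7649 in AdipoΔ/Δ macrophage-like cells, or 2162 CPM (2038 to 2290) and 2249 CPM (2198 to 2300), a ratio of 1.04 (0.978 to 1.11), whose interval includes 1. Neutrophil-like cells had 2217 CPM (2129 to 2308) and 2048 CPM (1924 to 2179). Neutrophil-like and macrophage-like cells had overlapping Ccl6 intervals in control, while in AdipoΔ/Δ the macrophage-like interval lay above the neutrophil-like one. Ly6Chigh monocyte-like cells had 826.5 and 1105 CPM, a ratio of 1.34 that was 0.968 at the mitochondrial limit of 2%. Dendritic cell-like cells had 408 and 539 CPM, and Ly6Clow monocyte-like cells 388 and 698 CPM, a ratio of 1.80. The unnamed cluster had 355 and 1309 CPM.

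Ccl9 stood below Ccl6 in macrophage-like cells and was nearly absent from neutrophil-like cells. It stood at 1288 CPM (1193 to 1388) in control and 1641 CPM (1598 to 1684) in AdipoΔ/Δ macrophage-like cells, a ratio of 1.27 (1.18 to 1.38). With the 3 subsets given the same weights in both libraries the ratio was 0.881, and that of Ccl6 0.806, so neither direction held. The weights were UMIs of both libraries, so 12 control lipid-associated cells with 28300 UMIs stood for a subset with 1062705 in AdipoΔ/Δ. Resident cells had 1499 and 2052 CPM of Ccl6 and 831 and 1173 CPM of Ccl9, and matrix cells 2422 and 3018 and 1423 and 1933 CPM, all higher in AdipoΔ/Δ. Lipid-associated cells went the other way, at 4947 and 1452 CPM of Ccl6 and 3640 and 1703 CPM of Ccl9, where 1 of the 12 control cells held 62.1% of the Ccl6 UMIs. In neutrophil-like cells it stood at 19.7 and 36.7 CPM, near the 14.0 and 63.8 CPM counted in B cell-like cells, which should lack the gene. At single-cell level, 93 of 111 control macrophage-like cells with Ccl6 (83.8%) and 355 of 379 in AdipoΔ/Δ (93.7%) also had Ccl9. Among neutrophil-like cells with Ccl6, 12 of 281 (4.27%) and 12 of 151 (7.95%) had Ccl9. In Ly6Chigh monocyte-like cells Ccl9 stood at 603.5 and 734 CPM, and in Ly6Clow at 170 and 375.5 CPM, a ratio of 2.21.

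The monocyte chemoattractant family members Ccl2, Ccl7 and Ccl8 were counted mainly in macrophage-like cells. Ccl2, the principal CCR2 ligand, gave 50 UMIs in control and 875 in AdipoΔ/Δ. Its levels were 94.0 CPM (69.8 to 123.9) and 257 CPM (240.5 to 275), a ratio of 2.74 (2.06 to 3.72). The share of cells with a Ccl2 UMI was 15.9% (20 of 126) in control and 20.4% (81 of 397) in AdipoΔ/Δ. When each cell was thinned to 1000 UMIs, these shares were 9.02% (11 of 122) and 8.95% (34 of 380), a difference within counting error. B cell-like cells, with median depths of 1803 and 1975 UMIs, had Ccl2 in 0.380% and 2.11% of cells. The Ccl2 level was thus higher in AdipoΔ/Δ while the share of cells with it at equal depth was not, and 4 of the 397 AdipoΔ/Δ cells held 52.5% of the Ccl2 UMIs. The top cell alone, in the lipid-associated subset, held 186 Ccl2 and 42 Ccl7 UMIs of its 25836. In the unnamed cluster of AdipoΔ/Δ, Ccl2 stood at 301 CPM, with 66 of its 111 UMIs in 1 cell.

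By subset, Ccl2 was highest in the lipid-associated cells, with 530 CPM (297 to 874) from 15 UMIs in 12 control cells and 425 CPM (387 to 466) in 81 AdipoΔ/Δ cells. Of the 452 UMIs of these AdipoΔ/Δ cells, 1 cell held 41.2%, and the top 2 held 50% or more. Resident cells had 101.1 CPM (64.1 to 152) in control and 112.5 CPM (92.6 to 135.5) in AdipoΔ/Δ, which overlapped. Matrix cells had 43.4 and 231 CPM, a ratio of 5.31 (2.997 to 10.4), but 1 AdipoΔ/Δ cell held 45.8% of the UMIs, and without the top cell the AdipoΔ/Δ level was 127 CPM. That cell was also the top cell of its subset for Ccl3 and Ccl4, with 143 Ccl2, 37 Ccl3 and 133 Ccl4 UMIs of its 24209. With the 3 subsets given the same weights in both libraries, the macrophage-like Ccl2 ratio was 1.27 in place of 2.74. The control lipid-associated level used there came from 15 UMIs in 12 cells, of median 1321 UMIs against 11913 in AdipoΔ/Δ.

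Ccl7, which also binds CCR2, stood at 41.4 CPM (25.9 to 62.6) in control and 51.2 CPM (43.8 to 59.3) in AdipoΔ/Δ macrophage-like cells, a ratio of 1.24 (0.792 to 2.03). All 22 control UMIs were in resident cells, at 96.7 CPM, where AdipoΔ/Δ had 43.6 CPM. In AdipoΔ/Δ the lipid-associated subset held 121 of the 174 UMIs, at 114 CPM, while its 12 control cells held 0 UMIs. A difference in that subset was not detectable at this depth. Cells with Ccl7 were largely cells with Ccl2: in AdipoΔ/Δ, 25 of the 34 Ccl7 cells (73.5%) had Ccl2, which was 25 of the 81 Ccl2 cells (30.9%). Of the macrophage-like cells without Ccl2, 2.85% had Ccl7. Cells with Ccl2 were the deeper ones, with a median of 9942 UMIs against 6001 in cells without it, and a deeper cell shows more genes.

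Ccl8, known in mouse as a CCR8 ligand, ran the other way from its neighbour Ccl2. It stood at 209 CPM (172 to 251) in control macrophage-like cells and 54.4 CPM (46.8 to 62.8) in AdipoΔ/Δ, a ratio of 0.261 (0.205 to 0.333). All 111 control UMIs were in resident cells, where the levels were 488 CPM (401 to 588) and 173 CPM (148 to 201), a ratio of 0.355 (0.278 to 0.455). Matrix and lipid-associated cells had 0 control UMIs and 3.70 and 8.47 CPM in AdipoΔ/Δ. The share of macrophage-like cells with Ccl8 after thinning was 7.38% in control and 3.95% in AdipoΔ/Δ. Within the resident subset, without thinning, Ccl8 was found in 14 of 65 control and 32 of 142 AdipoΔ/Δ cells, at median depths of 2641 and 6000 UMIs. The top control resident cell held 38 of the 111 UMIs, and the top 2 held 50% or more. Neutrophil marker UMIs summed to 3565 CPM in control resident cells and 253 CPM in AdipoΔ/Δ, and NK markers to 558 and 20.3 CPM, so markers of other cells were more abundant in the control subset. Their part in the Ccl8 difference was not tested.

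**Figure D2:**
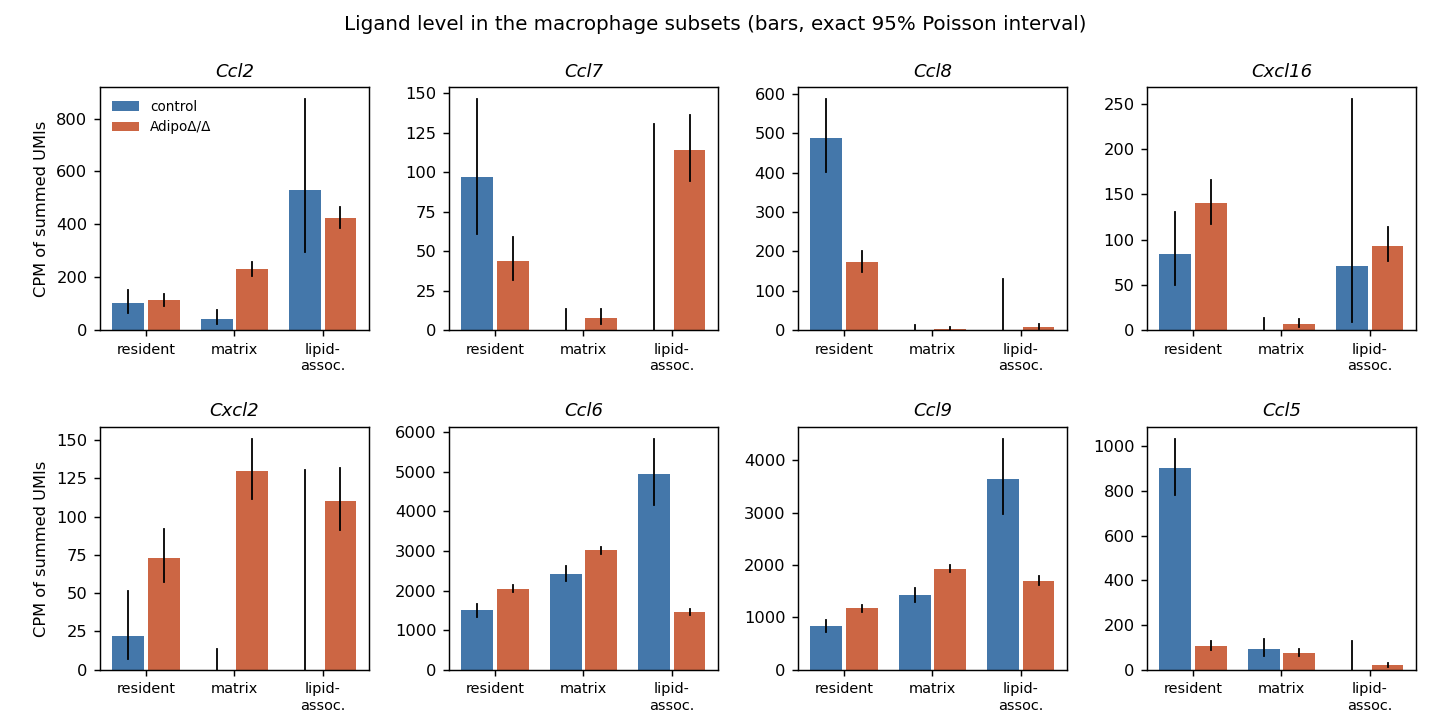
CPM of 8 ligands in the resident, matrix and lipid-associated macrophage-like subsets of each library, with exact Poisson 95% intervals as lines over the bars. Ccl8 and control Ccl7 stand in the resident subset (488 and 96.7 CPM in control), Ccl2 is highest in lipid-associated cells of both libraries (530 and 425 CPM), and intervals are widest for the 12 control lipid-associated cells.

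Cxcl2, the CXCR2 ligand that attracts neutrophils, was higher in AdipoΔ/Δ in the class where it was most abundant. Neutrophil-like cells gave 420 UMIs from 314 control cells and 762 UMIs from 171 AdipoΔ/Δ cells. The levels were 394 CPM (357 to 433.5) and 1555 CPM (1446 to 1669), a ratio of 3.95 (3.50 to 4.46). The share of neutrophil-like cells with Cxcl2 was 22.3% in control and 42.7% in AdipoΔ/Δ, and after thinning 15.7% (46 of 293) and 34.8% (54 of 155). B cell-like cells had Cxcl2 in 0 of 263 control and 0 of 95 AdipoΔ/Δ cells, which by a floor of 3 counts allows shares of up to 1.14% and 3.16%. Ratios between 3.01 and 3.95 came from all 10 alternative settings of the neutrophil-like value.

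Macrophage-like cells went the same way for Cxcl2, from fewer UMIs. They gave 5 UMIs in control, 4 of them in 1 cell, and 365 in AdipoΔ/Δ, or 9.40 CPM (3.05 to 21.9) and 107 CPM (96.6 to 119), a ratio of 11.4 (4.85 to 35.4). Cxcl2 was found in 2 of 126 control and 50 of 397 AdipoΔ/Δ cells, and after thinning in 0.820% and 5.00%. In AdipoΔ/Δ it stood at 73.0 CPM in resident, 130 CPM in matrix and 110 CPM in lipid-associated cells, while control had 0 UMIs in the latter 2 subsets. By the same floor, taken per library, the matrix level was at least 11.98-fold higher in AdipoΔ/Δ, and the exact interval of that ratio starts at 9.64. In lipid-associated cells a difference was not detectable at this depth. Of the 81 AdipoΔ/Δ cells with Ccl2, 22 (27.2%) had Cxcl2, which was 22 of the 50 Cxcl2 cells (44.0%).

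A list of 10 NF-kB response genes and a list of 13 genes known to respond to tissue dissociation were read beside Cxcl2. In neutrophil-like cells 4 of 9 measured NF-kB genes were at least 2-fold higher in AdipoΔ/Δ, beside 7.47% of all genes, including Nfkbia, the NF-kB inhibitor, at 333 and 849 CPM. Of 11 dissociation genes 1 was at least 2-fold higher, a share near that of all genes, Atf3 at 38.5 and 133 CPM. In macrophage-like cells 2 of 10 NF-kB genes and 1 of 13 dissociation genes were higher, beside 9.69% of all genes, and the dissociation list summed to 2742 and 2762 CPM. The part of these lists in the Cxcl2 values was not tested.

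Cxcl16, a transmembrane ligand of CXCR6 that also takes up oxidised lipoprotein, was spread over macrophage-like, Ly6Clow and dendritic cell-like cells. Macrophage-like cells had 39.5 CPM (24.4 to 60.3) in control and 72.3 CPM (63.6 to 81.9) in AdipoΔ/Δ, a ratio of 1.83 (1.17 to 3.01). Ly6Clow monocyte-like cells had 41.7 CPM (32.1 to 53.3) and 76.3 CPM (60.3 to 95.2), also a ratio of 1.83, which held its direction in 6 of 10 alternatives and was 0.577 where the libraries were merged without integration. Dendritic cell-like cells had 24.0 CPM (12.8 to 41.0) and 80.6 CPM (61.5 to 104), a ratio of 3.36. The intervals of these 3 classes overlapped in each library, so their order could not be set at this depth. Within macrophages the resident subset had 83.5 and 140 CPM, while matrix cells had 0 UMIs in control and 6.66 CPM in AdipoΔ/Δ. Cxcl16 was found in 0 of 263 and 0 of 95 B cell-like cells, and after thinning in 4.10% and 7.63% of macrophage-like cells.

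Ccl5 had the lowest of the 10 ratios in macrophage-like cells, at 434 CPM (380 to 494) in control and 67.0 CPM (58.6 to 76.3) in AdipoΔ/Δ, a ratio of 0.154 (0.128 to 0.186). In control, 7 cells with at least 10 Ccl5 UMIs each held 188 of the 231 UMIs (81.4%), and 6 of these 7 carried at least 5 UMIs of T and NK cell markers. In AdipoΔ/Δ, 3 such cells held 127 of 228 UMIs, and 1 of them carried the markers. NK marker genes summed to 248 CPM in control macrophage-like cells and 17.9 CPM in AdipoΔ/Δ, and T cell markers to 52.6 and 17.1 CPM. Without all cells that carried at least 5 such marker UMIs the ratio was 0.734. At the study's mitochondrial limit of 2% it was 1.03, but no cluster was named as the resident subset there. At the limit of 10% that subset held 205 of the 231 control UMIs, so the 2 ratios describe different cells. Single cells also set the control Ccl5 of B cell-like cells (200.5 CPM, and 28.4 without the top cell, against 38.3 CPM in AdipoΔ/Δ) and of dendritic cell-like cells (118 and 13.1 CPM, against 36.3 CPM).

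**Figure D3:**
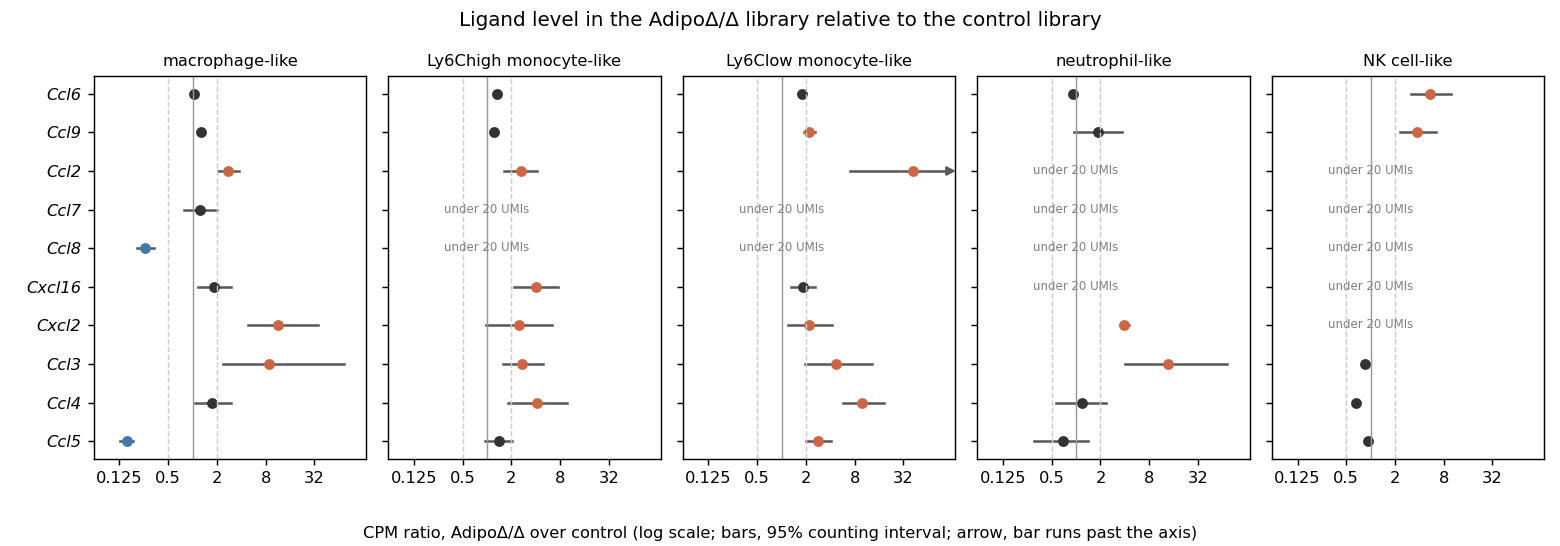
Ratio of CPM, AdipoΔ/Δ over control, on a log axis for each ligand in 5 classes, with 95% counting intervals as bars and dashed lines at ratios of 0.5 and 2. Cxcl2 lies to the right in neutrophil-like (3.95) and macrophage-like (11.4) cells, Ccl5 and Ccl8 to the left in macrophage-like cells (0.154 and 0.261), and NK cell-like Ccl3, Ccl4 and Ccl5 lie below 1 (0.859, 0.662 and 0.925).

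Members were counted as higher or lower where the ratio was 2 or more, or 0.5 or less, and 20 UMIs or more stood behind it in that class. By this rule 3 of 10 members were higher in AdipoΔ/Δ macrophage-like cells (Ccl2, Ccl3 and Cxcl2) and 2 were lower (Ccl5 and Ccl8). Of all 8820 genes counted there, 9.69% were higher and 3.96% lower. The members' median ratio was 1.50, and that of all genes 1.07. A gene with few UMIs passes the minimum more readily where it is high in 1 library, so these counts describe the members and are no test of them. Ccl3 in this class went from 2 UMIs (3.76 CPM) to 113 UMIs (33.2 CPM), a ratio of 8.84 (2.39 to 73.9). Ccl4 went from 33.8 to 58.2 CPM, and without the AdipoΔ/Δ cell that held 133 of its 198 UMIs and the top control cell the ratio was 0.727.

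In Ly6Chigh monocyte-like cells 5 of the 8 members with at least 20 UMIs were higher and 0 lower, against 3.92% and 1.53% of 8231 genes. Their median ratio was 2.52, and 1.06 for all genes. Ccl2 stood at 12.96 and 33.6 CPM, a ratio of 2.59 that was 0.817 after thinning, and Cxcl16 at 6.48 and 25.8 CPM, a ratio of 3.98, with Ccl3, Ccl4 and Cxcl2 at ratios of 2.73, 4.10 and 2.46. Cxcl2 rested on 10 control and 12 AdipoΔ/Δ UMIs, with an interval of 0.973 to 6.35 that includes 1. Ccl4 rested on 10 and 20 UMIs, 9 of the 20 in 1 AdipoΔ/Δ cell. In Ly6Clow monocyte-like cells 6 of 8 were higher and 0 lower, against 4.64% and 1.44% of 7420 genes, with a median of 2.53 against 1.07. Ccl2 there rested on 1 control UMI and 28 in AdipoΔ/Δ, a ratio of 42.0 (6.95 to 1719). Of these 28 UMIs, 13 were in 1 cell and 26 in the cluster led by Gngt2. Ccl5 stood at 31.9 and 90.9 CPM, a ratio of 2.85 that was 1.77 without cells carrying at least 5 T and NK cell marker UMIs. Macrophage marker UMIs were also higher in these monocyte-like classes, summing to 1487 and 2282 CPM in Ly6Chigh and 1718 and 2975 CPM in Ly6Clow, and lipid-associated subset markers to 246 and 964 and to 304 and 861.5 CPM. Their part in these ratios was not tested. In neutrophil-like cells 2 of 6 were higher (Cxcl2, and Ccl3 at 2.81 and 38.8 CPM) and 0 lower, against 7.47% and 2.50% of 4714 genes, with a median of 1.52 against 1.20. Ccl3 there rested on 3 control and 19 AdipoΔ/Δ UMIs, with an interval of 4.055 to 72.7. Its control count was no higher than the floor of 3 counts.

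Summed over all kept cells, 6 of 10 members were at least 2-fold higher in AdipoΔ/Δ and 0 lower, against 7.81% and 2.36% of 12080 genes. The makeup of the libraries moved with these values: macrophage-like cells held 4.95% of all UMIs in control and 30.1% in AdipoΔ/Δ. When the 17 clusters were given the same weights in both libraries, the ratio of Ccl2 went from 11.1 to 1.69, that of Ccl7 from 6.93 to 1.77, that of Ccl9 from 2.72 to 1.13 and that of Ccl6 from 1.73 to 1.03. For Ccl2 this takes the control level of the lipid-associated cluster from 15 UMIs in 12 cells. Ccl8 went from 2.03 to 0.514, that is from higher to lower in AdipoΔ/Δ. Cxcl16 went from 3.91 to 2.23, and Cxcl2 went up from 2.69 to 4.47. Ccl3, Ccl4 and Ccl5 changed little, from 0.980, 0.720 and 0.902 to 1.06, 0.785 and 0.933.

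**Figure D4:**
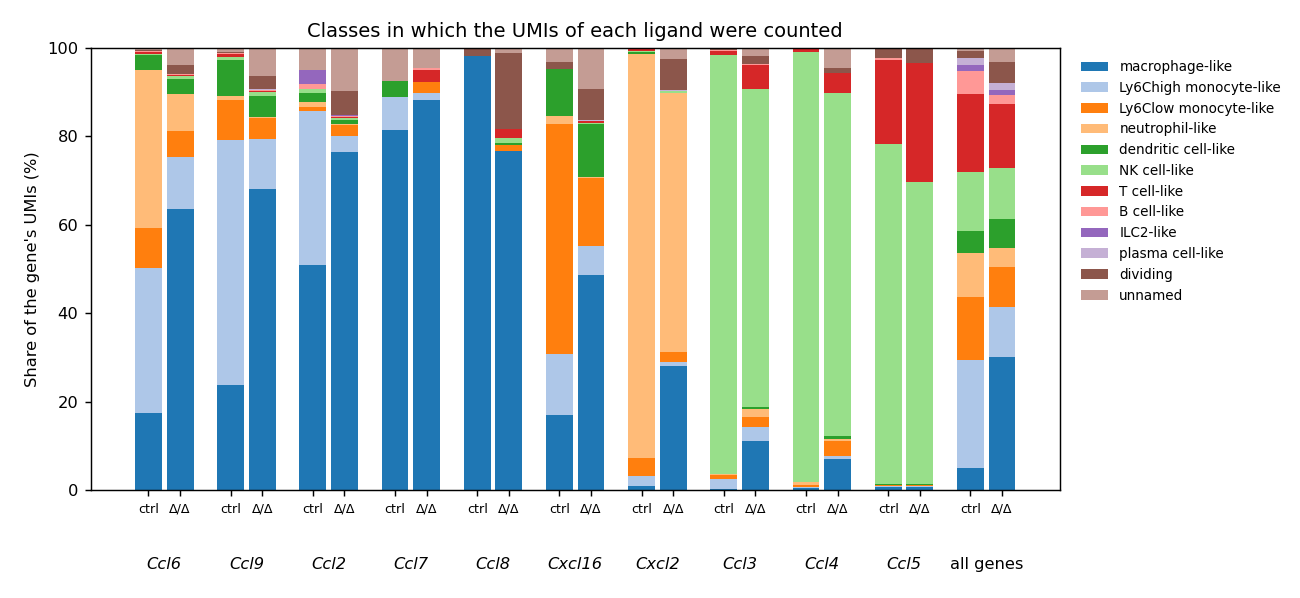
Share of each ligand's UMIs (percent, stacked bars) by leukocyte class in the control and AdipoΔ/Δ libraries. Macrophage-like cells held 17.4% of Ccl6 UMIs in control and 63.5% in AdipoΔ/Δ, 23.9% and 68.0% of Ccl9, 51.0% and 76.4% of Ccl2, and 17.1% and 48.6% of Cxcl16.

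The class that held most UMIs differed between libraries for Ccl6, Ccl9 and Cxcl16, and was the same for the other members. Ccl6 UMIs lay mainly in neutrophil-like (35.8%) and Ly6Chigh (32.8%) cells in control, and in macrophage-like cells (63.5%) in AdipoΔ/Δ. Ccl9 UMIs lay mainly in Ly6Chigh cells in control (55.3%), which held 11.5% in AdipoΔ/Δ. Ly6Clow cells held 52.0% of the Cxcl16 UMIs in control and 15.4% in AdipoΔ/Δ, in both libraries mostly in the cluster led by Gngt2. For Cxcl2 the neutrophil-like share was 91.3% in control and 58.6% in AdipoΔ/Δ, with the macrophage-like share at 1.09% and 28.1%. Resident macrophage-like cells held 98.2% of Ccl8 in control and 71.0% in AdipoΔ/Δ, where dividing cells held 17.0%, with 40 of their 41 UMIs in 1 cell.

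**Figure D5:**
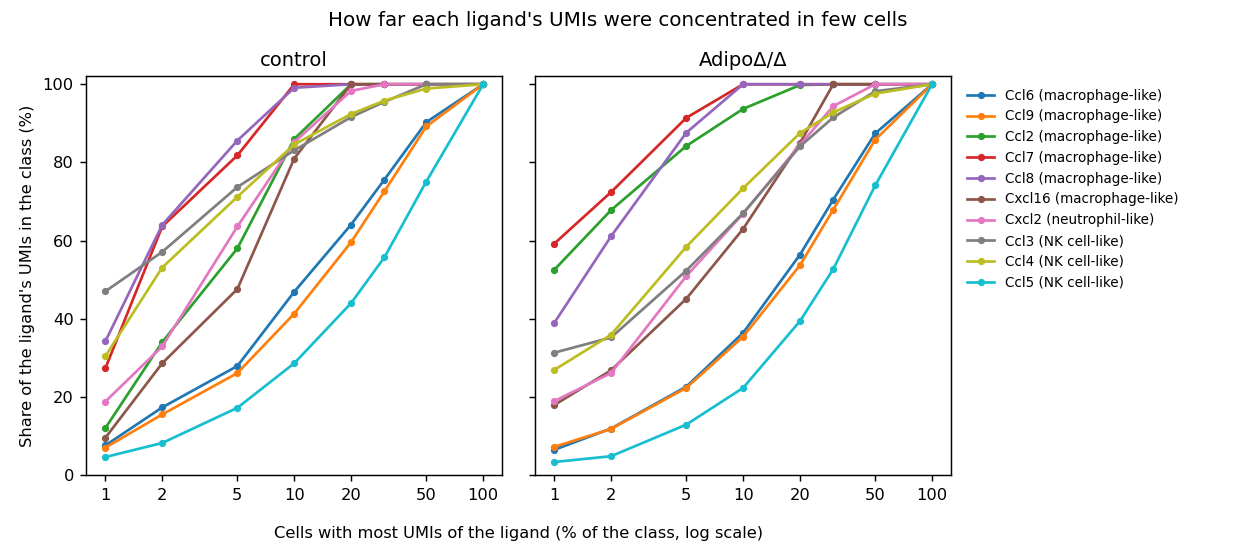
Share of a ligand's UMIs (y axis, percent) held by the cells with the most UMIs of it (x axis, percent of the cells of the class), for the control and AdipoΔ/Δ libraries. Curves of Ccl6 and Ccl9 rise slowly, with 10% of AdipoΔ/Δ macrophage-like cells holding 36.4% and 35.4% of the UMIs, while Ccl2 and Ccl7 rise steeply.

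The members thus differed in how evenly their transcripts were spread over cells. Ccl6 and Ccl9 were found in most macrophage-like cells, and thinned shares of cells with a UMI were 77.0% and 78.7% for Ccl6 and 58.2% and 73.4% for Ccl9. Ccl6 was found in 4.94% and 15.8% of B cell-like cells without thinning. Levels of Ccl6 in NK cell-like cells (11.1 and 60.3 CPM, 41 of the 79 AdipoΔ/Δ UMIs in 1 cell) and T cell-like cells (13.3 and 22.7 CPM) were at or below those of B cell-like cells (38.4 and 97.8 CPM) and are read as background. For Ccl7 1% of AdipoΔ/Δ macrophage-like cells held 59.2% of the UMIs, and for Ccl8 38.9%.

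The receptors of these ligands were counted in the same cells. Of 11 receptor genes listed, 6 had at least 50 UMIs. Ccr2, the receptor of Ccl2 and Ccl7, stood at 1463 CPM in control and 1266 in AdipoΔ/Δ Ly6Chigh cells and at 934 and 633 CPM in macrophage-like cells. Ccr1 and Cxcr2 were neutrophil-like genes, at 762 and 834 CPM and at 1962 and 2218 CPM. Cxcr6, the Cxcl16 receptor, stood at 36.7 and 109.7 CPM in T cell-like cells, a ratio of 2.99 (2.25 to 4.01). It was also a leading gene of the cluster led by Cxcr3, which made up 115 of 390 control and 136 of 281 AdipoΔ/Δ T cell-like cells. The part of that makeup in the Cxcr6 ratio was not tested. Ccrl2, a non-signalling chemerin-binding receptor, stood at 14.1 and 116 CPM in neutrophil-like cells, a ratio of 8.27 (4.62 to 15.7). Over all cells 2 of 7 measured receptors were at least 2-fold higher in AdipoΔ/Δ and 0 lower, beside 7.81% and 2.36% of all genes.

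Of 27 other chemokine ligands listed, 26 were in the gene table and 10 had at least 100 UMIs. Over all cells 11 of the 14 with at least 20 UMIs were higher in AdipoΔ/Δ and 0 lower, beside the same 7.81% and 2.36% of all genes and the same difference in the makeup of the libraries. In macrophage-like cells Pf4, the platelet factor also made by resident macrophages, stood at 1357 and 1274 CPM and Ccl24, an eotaxin, at 195.5 and 210 CPM. Ccl12, the CCR2 ligand of the Ccl2 family, stood at 65.8 and 17.3 CPM, a ratio of 0.264 (0.171 to 0.413), the same side as Ccl8. The interferon-induced Cxcl10 stood at 59.1 and 232 CPM in Ly6Chigh cells, a ratio of 3.92 (3.22 to 4.80), and Cxcl9 at 1.67 and 11.8 CPM over all cells. Ccl17 and Ccl22, CCR4 ligands of dendritic cells, gave 411 and 134 CPM in AdipoΔ/Δ dendritic cell-like cells, but 1 cell held 88.9% and 64.0% of these UMIs. Ccl1 gave 194 UMIs in 3 AdipoΔ/Δ T cell-like cells and 0 in control. Xcl1 stood at 797 and 818 CPM in NK cell-like cells, and Ccl25 at 8.74 and 7.51 CPM over all cells.

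The genes most like each member were found by Pearson's r of log2(CPM + 1) over 22 points, the 11 named classes of both libraries, among 7899 genes. The points share libraries, and r is given as a description. Ccl3 and Ccl4 were nearest to each other (0.859), followed by Nr4a3. Ccl5 was nearest to Samd3 (0.945), Sh2d1a (0.937) and the NK and T cell perforin gene Prf1 (0.936). Ccl6 was nearest to Pirb (0.952), Fcgr3 (0.946) and Tfe3 (0.937), and Ccl9 to Fn1 (0.942), P2ry6 (0.940) and Slamf8 (0.933). Ccl8 was nearest to Cd209f (0.949) and Cd209g (0.909), lectins of resident macrophages, and to Slco2b1 (0.909). Ccl2 was nearest to Tnfrsf11a (0.893), Ccl7 to Lyz1 (0.861), Cxcl2 to Kcnj2 (0.862) and Cxcl16 to Adap2 (0.950), Lacc1 (0.937) and Cebpa (0.918).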

How the data were processed

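The authors aligned and counted the reads with Cell Ranger 4.0.0 on mm10 (GRCm38) and used Seurat, and deposited the UMI counts per gene and barcode of each library. From these counts, barcodes were kept that had 200 or more detected genes and a mitochondrial share up to 10%, since only 51.4% and 37.7% of barcodes passed the 2% limit of the study. Cells were clustered in R 4.3.3 with Seurat 5.3.0 and SCTransform 0.4.2 (2000 integration features before chemokine ligand and receptor genes were removed, 20 principal components, resolution 1.0). Clusters were named from marker lists, by a score of at least 0.5 and at least 3 markers found in 10% of cells. That scoring rule was set after seeing the data, and names may differ from those of the study. No doublet caller was run, and left-out barcodes numbered 318 in control and 365 in AdipoΔ/Δ.

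UMIs were summed per class and library (Python 3.11.15, numpy 2.4.6, SciPy 1.17.1, pandas 2.3.3). Levels carry exact Poisson intervals, shares Clopper-Pearson intervals and ratios conditional exact binomial intervals at the 95% level. These intervals leave out the spread between animals, because each condition was 1 library. Those of levels and ratios also leave out the spread of UMIs between cells, so they are too narrow where few cells held most UMIs. To compare shares of cells at equal depth, each cell was thinned to 1000 UMIs, and cells below that were left out. A control count of 0 was read against a floor of 3 counts. A gene was called where its ratio was at least 2 or at most 0.5 with at least 20 UMIs in the class. The ratio intervals and the fold rule were tested on simulated Poisson counts with known ratios, which lack the spread of UMIs between cells.

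The text names the 10 members, listed receptors with at least 50 UMIs (of which 1 is not reported here), other listed ligands with at least 100 UMIs and the genes of highest correlation with each member, of which up to 3 are given. Atf3 and Nfkbia were chosen after their values were seen. The members and lists were chosen with earlier results of these data known. Alternatives changed the mitochondrial limit, gene minimum, resolution, features, integration, UMI total, depth, averaging and top cells. Counting the unnamed cluster as macrophage-like, leaving out cells with T and NK cell markers, and weighting the subsets by their UMIs over both libraries were added after seeing the data.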

Additional observations from a re-analysis of the deposited data

Results flagged for a closer look

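The Ccl5 ratio of AdipoΔ/Δ over control lay on opposite sides of 1 in different classes, with intervals that did not meet. It was 2.85 in Ly6Clow monocyte-like cells, but 0.154 in macrophage-like, 0.307 in dendritic cell-like and 0.191 in B cell-like cells, and the difference between classes was not tested. In dendritic cell-like and B cell-like cells 1 control cell held 57 of 64 and 99 of 115 of the control UMIs, and in Ly6Clow cells 2 AdipoΔ/Δ cells held 32 of 93, both with T and NK cell markers. Without cells carrying such markers the ratio was 1.77 in Ly6Clow, 0.734 in macrophage-like, 0.307 in dendritic cell-like and 1.35 in B cell-like cells.

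The 318 control and 365 AdipoΔ/Δ barcodes that the filters left out also carried ligand UMIs, and 5 members with at least 20 UMIs there were at least 2-fold higher in AdipoΔ/Δ. The ratios there were 8.95 for Ccl2, 3.93 for Ccl3, 3.45 for Ccl8, 5.14 for Ccl9 and 2.82 for Cxcl16, and they were not tested. Of the others, Ccl7 (3 and 16 UMIs) stood at a ratio of 4.30, Cxcl2 at 1.50, Ccl6 at 1.17, Ccl5 at 0.620 and Ccl4 at 0.474. These barcodes hold a mix of classes, so the Ccl8 value is not set against that of macrophage-like cells.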

How the results depend on the processing

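No paired analysis was possible because each condition had 1 library. Ratios in macrophage-like cells kept their direction under every alternative that gave a value for Ccl2 (1.27 to 5.79), Ccl3 (2.98 to 18.8), Ccl7 (1.10 to 2.14), Ccl8 (0.231 to 0.664), Cxcl2 (5.78 to 49.5) and Cxcl16 (1.24 to 5.05), and not for Ccl4, Ccl5, Ccl6 and Ccl9. At the mitochondrial limit of 2%, with 30 control and 98 AdipoΔ/Δ macrophage-like cells, the ratio was 1.75 for Ccl2, 1.03 for Ccl5, 0.950 for Ccl6, 0.948 for Ccl9 and 5.05 for Cxcl16. There was none for Ccl3, Ccl4, Ccl7, Ccl8 and Cxcl2, which had 0 control UMIs in that class. No cluster was named as the resident subset at that limit. The class there was 22 and 68 matrix and 8 and 30 lipid-associated cells. At the limit of 10% all control Ccl7, Ccl8 and Cxcl2 UMIs of the class lay in resident cells. At a limit of 5% it was 5.79 for Ccl2, 5.12 for Ccl4, 0.429 for Ccl5, 1.55 for Ccl6, 2.11 for Ccl7, 0.452 for Ccl8 and 1.82 for Ccl9. With a minimum of 500 genes it was 4.94, 4.71, 0.279, 1.48, 2.14, 0.394 and 1.85 for the same genes. Thinning to 1000 UMIs gave 1.43 for Ccl2, 0.428 for Ccl4, 0.214 for Ccl5, 1.26 for Ccl6 and 0.406 for Ccl8, and none for Ccl3. The mean of single-cell CPM gave 1.42, 0.662, 0.218, 1.26 and 0.664 for Ccl2, Ccl4, Ccl5, Ccl6 and Ccl8. Resolution 2.0 gave 1.11 for Ccl6, and merging without integration gave 0.243 for Ccl5 and 0.966 for Ccl6. Leaving out the top cell gave 0.727 for Ccl4, 0.346 for Ccl8 and 49.5 for Cxcl2. Of the alternatives chosen after seeing the data, counting the unnamed cluster as macrophage-like gave 2.99 for Ccl4, 1.14 for Ccl6 and 1.42 for Ccl9. Leaving out cells with T and NK cell markers gave 5.61 for Ccl4 and 0.734 for Ccl5, and for Ccl5 turned the ratio in B cell-like cells from 0.191 to 1.35. The same subset weights in both libraries gave 1.27 for Ccl2, 0.219 for Ccl5, 0.806 for Ccl6, 0.381 for Ccl8 and 0.881 for Ccl9. Settings that clustered the cells anew also changed which clusters were named macrophage-like, so these ratios do not all describe the same cells. A macrophage-like cluster without a subset was added at the limit of 5% (73 and 150 cells) and with 500 genes (83 and 150). Such a cluster was also added at resolution 2.0 (23 and 159 cells) and with merging (23 and 137). The cause of these shifts was not tested. Depth limits Ccl3, Cxcl2, Ccl4, Cxcl16 and Ccl7 most, with 2, 5, 18, 21 and 22 control UMIs.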
